A study of Mus musculus with 46 samples.

Results

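The interferon regulatory factors (IRFs) were examined in AgRP and POMC neurons of the mouse arcuate nucleus. The 8 members analysed were Irf1, Irf2, Irf3, Irf4, Irf5, Irf7, Irf8 and Irf9. They were taken by symbol as 8 of the 31854 rows of the RNA count table. Every ATAC-seq peak that overlapped the 50 kb on either side of the start site of a member was added. This gave 42 of the 67472 peaks counted in sorted nuclei and 64 of the 123721 peaks counted across nutritional states. Irf9 was the member whose mRNA changed in AgRP neurons, falling to 0.625-fold of the fed level in the fast and rising 2.19-fold with leptin.

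NuTRAP mice carry a Cre-dependent GFP-tagged ribosomal protein and an mCherry-labelled nuclear envelope. They were crossed with a Cre driver, either AgRP-IRES-Cre for AgRP neurons or POMC-IRES-Cre for POMC neurons, so that ribosome-bound mRNA (TRAP) or sorted nuclei of one neuron type could be collected. Male mice of 6 to 11 weeks were fed ad libitum and given PBS, fasted overnight (18 to 20 h) and given PBS, or fasted overnight and given leptin (5 mg/kg, intraperitoneal). The arcuate nucleus was taken 3 h after injection, and each RNA library pooled 4 of them. Fed, fasted and leptin groups held 3, 4 and 4 libraries for AgRP neurons and 2 each for POMC neurons. ATAC-seq of AgRP nuclei held 2 libraries for each of the same states, and a separate set held 2 libraries each of AgRP-positive and AgRP-negative nuclei, sorted from the same pooled samples. CUT&RUN, which cuts out the DNA bound by a given protein, was available as 1 peak list for IRF3 and 1 for CTCF, a factor that binds insulators and loop anchors, with no replicate. The IRF3 list came from mice that express IRF3-2D, a constitutively active phospho-mimetic form, in AgRP neurons through Cre. It therefore comes from a model that adds the mutant form, and the list does not separate its binding from that of endogenous IRF3. P-values for the libraries measure the spread between pools, and a lower level of an mRNA in a library could come from fewer cells carrying it or from less RNA per cell, which cannot be told apart here.

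IRFs are transcription factors that share a DNA-binding domain recognising GAAA repeats, as found in the interferon-stimulated response element (ISRE). IRF3 and IRF7 are activated by phosphorylation downstream of nucleic acid sensors and drive type I interferon genes. IRF9 has no such activation of its own and joins STAT2 in ISGF3, the complex that acts on interferon-stimulated genes after interferon receptors signal through JAK kinases. IRF1 is an inducible activator, IRF2 often opposes it, and IRF4, IRF5 and IRF8 are best known from lymphoid and myeloid cells, which in brain are mainly microglia. The leptin receptor signals through JAK2 and STAT3, which binds gamma-activated sites (GAS).

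Total counts were 25581041 to 54511107 in the AgRP RNA libraries, 30704075 to 53217053 in the POMC RNA libraries, 8685497 to 11177208 in the sorted-nuclei ATAC libraries and 8263234 to 17190963 in the ATAC libraries of the 3 states. Levels are given as CPM, the counts of a gene scaled to a common library size by TMM over the 17 RNA libraries. Agrp was measured at 312 to 2133 CPM in AgRP libraries and at 5.87 to 27.4 CPM in POMC libraries. Pomc showed the reverse order, with 17.4 to 44.0 CPM against 1126 to 2064 CPM. One set of libraries stood apart from the rest, namely AgRP replicate 4 and POMC replicate 2 of every state. They held 20152 to 25852 and 23293 to 26934 CPM of Slc1a2, the astrocyte glutamate transporter, against 2378 to 3844 and 5210 to 6196 CPM in the other libraries. Gfap, another astrocyte gene, did not follow it (34.7 to 46.3 CPM against 29.9 to 53.3 CPM in AgRP libraries). Each group held 1 of these libraries, and results that rest on them are given with and without them.

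Sequences around the start sites of 5 members are shown because they hold matches to the GAS or ISRE letters in open chromatin. The letters searched, on both strands, were TTCNNNGAA for GAS, TTCCNGGAA for the stricter GAS form preferred by STAT3, which is a subset of the first, and GAAANNGAAA for the ISRE. The 11 RefSeq promoters of the members, taken as 250 bases before to 50 bases after each start, held a GAS match in 3 cases, a stricter GAS match in 0 and an ISRE match in 1. Among all 32851 promoters the shares were 8.3%, 1.15% and 3.44%. A match is a description of letters and not of a bound site. The 250 bases before the start of Irf2 (chr8:46739495-46739744), Irf1 (chr11:53769764-53770013) and Irf8 (chr8:120736108-120736357) are given 5′ to 3′ on the plus strand from RefSeq, GRCm38.p6 (mm10), with the matches in capitals.
Irf2 promoter, first match ISRE and second GAS: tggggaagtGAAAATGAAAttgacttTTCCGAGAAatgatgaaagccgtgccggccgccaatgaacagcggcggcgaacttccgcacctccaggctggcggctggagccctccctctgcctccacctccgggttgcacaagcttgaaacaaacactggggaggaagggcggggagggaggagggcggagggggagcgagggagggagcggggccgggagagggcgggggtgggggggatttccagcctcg
Irf1 promoter, 1 GAS match: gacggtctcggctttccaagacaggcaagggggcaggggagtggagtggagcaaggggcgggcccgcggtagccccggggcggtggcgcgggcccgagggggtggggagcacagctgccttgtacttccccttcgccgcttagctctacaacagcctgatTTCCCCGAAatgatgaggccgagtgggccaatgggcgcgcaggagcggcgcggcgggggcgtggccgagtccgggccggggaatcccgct
Irf8 promoter, 2 GAS matches: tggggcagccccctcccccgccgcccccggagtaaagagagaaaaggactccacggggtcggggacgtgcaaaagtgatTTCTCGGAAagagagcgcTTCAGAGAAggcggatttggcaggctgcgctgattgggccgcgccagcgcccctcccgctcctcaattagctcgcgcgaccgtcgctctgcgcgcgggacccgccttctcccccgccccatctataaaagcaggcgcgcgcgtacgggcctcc
The promoters of Irf9 and Irf7 held none of these letters, but the ATAC peaks over their first exons did. The Irf9 peak held a GAS match (chr14:55604114-55604143, plus strand) inside an IRF3 CUT&RUN interval. The Irf7 peak held 2 ISRE matches, of which the one at chr7:141266090-141266119 lay inside an IRF3 interval and the one at chr7:141265825-141265854 did not. Irf7 lies on the minus strand, and both stretches are printed on the plus strand.
Irf9 GAS site: accacgtggtTTCTAGGAAatgcacctccc
Irf7 ISRE site inside the IRF3 interval: tgcatctcagGAAAATGAAAcctaaacagt
Irf7 ISRE site outside it: caggtaggaaTTTCAGTTTCacaagtgtga
In the central 300 bases of ATAC peaks, GAS matches stood in 5 of the 42 member peaks of sorted nuclei and 8 of the 64 member peaks of the 3 states, against 11.1% and 12.4% of all peaks. ISRE matches stood in 4 and 4, against 4.04% and 4.15% of all peaks.

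Levels of the members were compared per kilobase of transcript, since the transcripts differ in length. In the 11 AgRP libraries Irf9 was highest at 8.38 ± 3.05 CPM per kb (SD, n = 11), followed by Irf2 at 5.05 ± 1.66, Irf1 at 2.51 ± 0.437, Irf3 at 2.06 ± 0.454 and Irf7 at 0.969 ± 0.249. Irf5 (0.246 ± 0.0932), Irf8 (0.106 ± 0.0402) and Irf4 (0.0361 ± 0.0324) were lowest. Irf9 was above Irf2 in 10 of 11 libraries, Irf2 above Irf1 in 11, Irf1 above Irf3 in 9, Irf3 above Irf7 in 11 and Irf7 above Irf5 in 11. In POMC libraries Irf2 (6.00 ± 2.45 CPM per kb, n = 6) and Irf9 (5.65 ± 1.81) were not separated, with Irf2 the higher in 3 of 6 libraries. Irf1 (1.97 ± 0.447) and Irf3 (1.89 ± 0.484) were likewise not separated, with Irf1 the higher in 3 of 6. Irf7 was measured at 0.840 ± 0.145, Irf5 at 0.192 ± 0.0986, Irf8 at 0.134 ± 0.0376 and Irf4 at 0.0758 ± 0.0275 CPM per kb. The family therefore fell into 5 genes above a mean of 1 CPM (Irf1, Irf2, Irf3, Irf7 and Irf9), which were tested, and 3 below it, which were tested only with the filter on low counts left out. The 5 tested genes passed on their mean over all libraries of a set, so no state alone decided their entry.

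**Figure D1:**
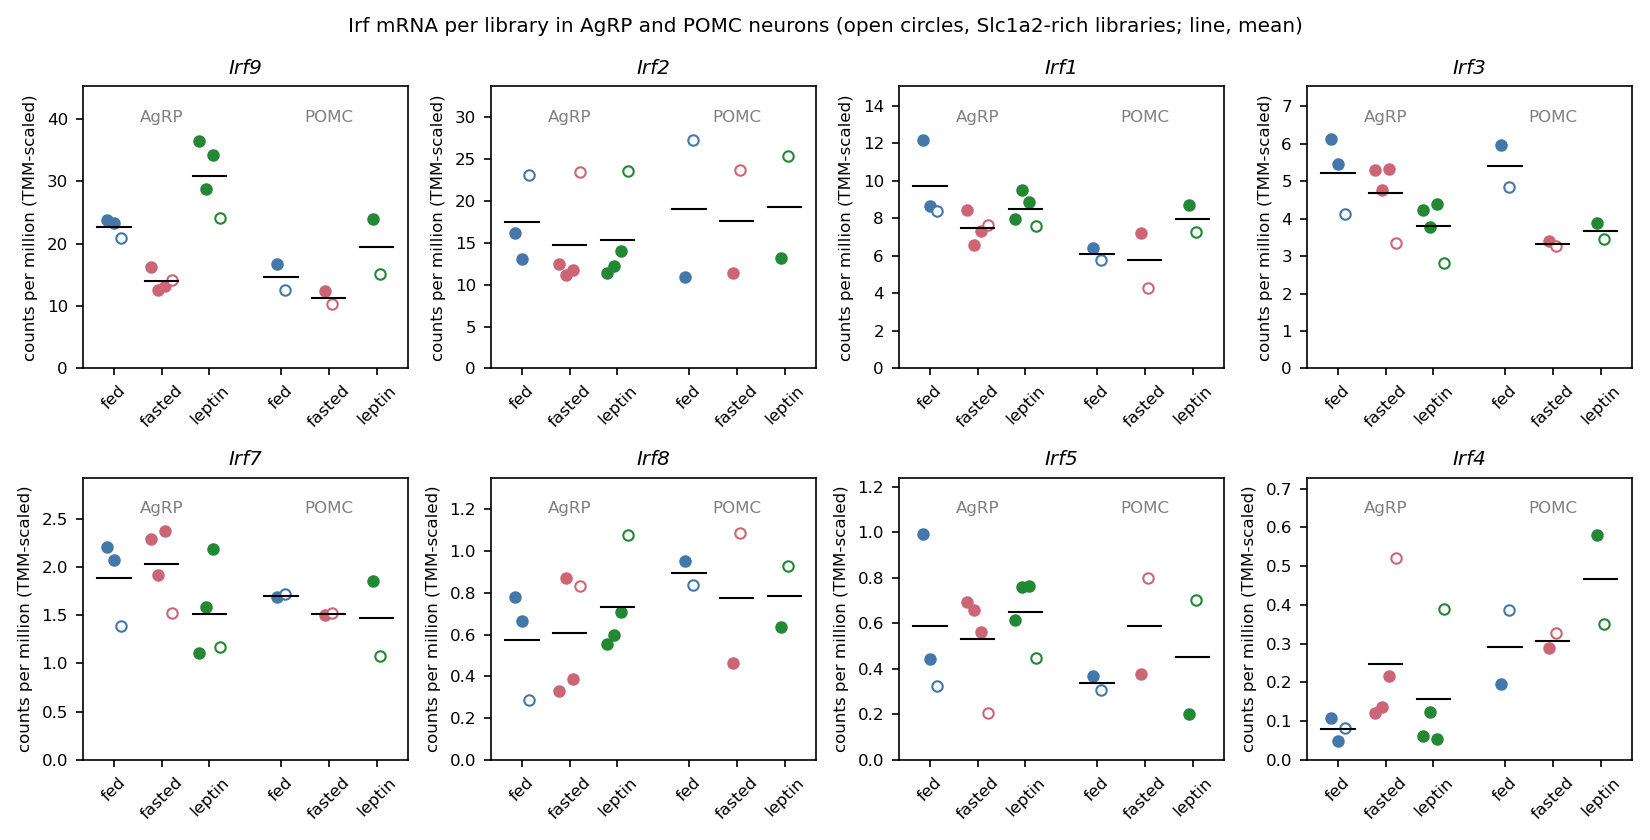
Level of each of the 8 members in every RNA library, in TMM-scaled CPM on a linear axis, for AgRP and POMC neurons in the fed, fasted and leptin states. Each circle is 1 library, open circles are the libraries rich in Slc1a2, and lines are group means. The Irf9 ranges of the states do not overlap in AgRP neurons (fasted 12.6 to 16.3, fed 20.9 to 23.8, leptin 24.1 to 36.4 CPM). Fed and leptin nearly meet, and leptin against fed was not called (edgeR FDR = 0.0603). Irf2 splits by the Slc1a2-rich libraries.

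Irf9 (ENSMUSG00000002325.15, chr14:55603571-55610030, plus strand) encodes the DNA-binding partner of STAT2. In AgRP neurons its level was 23.8, 23.3 and 20.9 CPM in the fed libraries and 16.3, 12.6, 13.2 and 14.2 CPM in the fasted libraries. After leptin it was 36.4, 28.7, 34.2 and 24.1 CPM. No fasted library reached the lowest fed library, and no leptin library fell to the highest fed library. The fall in the fast was -0.68 on the log2 scale (SE 0.132, 95% interval -0.97 to -0.39, edgeR FDR = 0.0137) and was seen in 3 of 3 same-numbered pairs. The rise from fasted to leptin was 1.13 (SE 0.124, 95% interval 0.86 to 1.40, FDR = 0.000709), seen in 4 of 4 pairs. Leptin against fed gave 0.45 (SE 0.133, 95% interval 0.16 to 0.75, FDR = 0.0603), which did not pass. With replicate number as a block it was 0.489 (edgeR FDR = 0.00315), under the fold required. A gene was called when its FDR was under 0.05 and its log2 fold change exceeded 0.5 in size. By this rule Irf9 was 1 of the 521 genes called in the fast and 1 of the 245 called for leptin against fasted, which is 3.89% and 1.83% of the 13401 genes tested. Leptin against fed called 735 genes (5.48%) and 0 of the 5 members. With replicate number as a block these totals were 930, 390 and 1148 genes, and the members called did not change.

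The leptin call of Irf9 held under each of the 18 alternatives computed for it, with log2 fold changes of 1.05 to 1.24, and was 1.24 (FDR = 0.000820) without the Slc1a2-rich libraries. The fasting call held under 15 of 18. It was lost without fed replicate 1 (-0.65, FDR = 0.0618), without fed replicate 3 (-0.65, FDR = 0.0529) and under library-size scaling (-0.73, FDR = 0.0826), and it was -0.76 (FDR = 0.0112) without the Slc1a2-rich libraries. Leptin against fed reached the call without leptin replicate 4 (0.54, FDR = 0.0197). Without the Slc1a2-rich libraries it was 0.476 (FDR = 0.0498), under the fold required. The tail of the Rnf31 gene overlaps Irf9 on the same strand over 123 bases, so reads there could come from either gene.

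**Figure D2:**
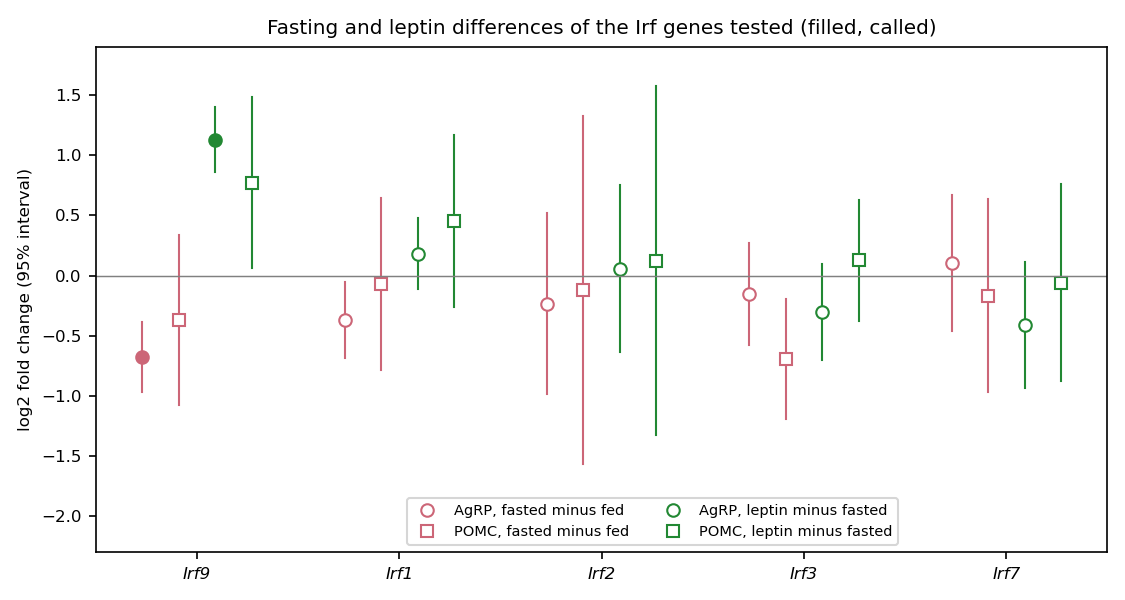
Log2 fold change of the 5 tested members with 95% intervals, for fasted minus fed (red) and leptin minus fasted (green), in AgRP (circles) and POMC (squares) libraries. Filled symbols passed the call. Both AgRP points of Irf9 are filled, at -0.68 and 1.13, and no other point is.

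Irf3 (ENSMUSG00000003184.15, chr7:44997648-45002848, plus strand), the sensor-activated factor whose binding was profiled, was low and was not called in any comparison of states. Its level in AgRP neurons was 6.12, 5.46 and 4.12 CPM when fed and 5.31, 4.76, 5.33 and 3.36 CPM when fasted. Leptin libraries held 4.25, 3.78, 4.39 and 2.81 CPM. The 3 states overlapped. Fasted minus fed was -0.15 on the log2 scale (95% interval -0.58 to 0.27, FDR = 0.757) and leptin minus fasted was -0.30 (95% interval -0.70 to 0.09, FDR = 0.819), with the leptin library the lower in 4 of 4 same-numbered pairs. Leptin minus fed was -0.45 (95% interval -0.88 to -0.03, FDR = 0.185), with the leptin library the lower in 3 of 3 pairs. The FDR was 0.0104 when replicate number was a block. Without the Slc1a2-rich libraries the difference was -0.499 (FDR = 0.0435). In both fits its size stayed under the 0.5 required for a call. The replicate block changed no call of a member. Irf3 overlaps Bcl2l12 on the opposite strand over 1065 bases, and the library preparation does not mark strand, so reads in that stretch cannot be separated.

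Irf7 (ENSMUSG00000025498.15, chr7:141262706-141266481, minus strand), the interferon-inducible relative of IRF3, was the lowest of the tested members. It was measured at 2.20, 2.07 and 1.39 CPM in fed, 2.29, 1.92, 2.37 and 1.53 CPM in fasted and 1.11, 1.58, 2.18 and 1.17 CPM in leptin libraries of AgRP neurons. Fasted minus fed was 0.10 (95% interval -0.46 to 0.67, FDR = 0.897) and leptin minus fasted -0.41 (95% interval -0.93 to 0.12, FDR = 0.798). The groups overlapped in both comparisons, although fasted was the higher in 3 of 3 same-numbered pairs and leptin the lower in 4 of 4.

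Irf1 (ENSMUSG00000018899.16, chr11:53770014-53778374, plus strand), the inducible activator, was measured at 12.1, 8.64 and 8.36 CPM in fed, 8.42, 6.57, 7.31 and 7.63 CPM in fasted and 7.94, 9.52, 8.87 and 7.57 CPM in leptin libraries of AgRP neurons. Fed replicate 1 stood above the other 10 libraries. Fasted minus fed was -0.37 (SE 0.144, 95% interval -0.69 to -0.05, FDR = 0.185) and leptin minus fasted 0.18 (95% interval -0.11 to 0.48, FDR = 0.974), so neither passed. Irf1 overlaps Gm17334 on the opposite strand over 907 bases.

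Irf2 (ENSMUSG00000031627.9, chr8:46739732-46847458, plus strand), often a repressor at the sites IRF1 activates, followed the Slc1a2-rich libraries and not the state. It was measured at 16.2, 13.1 and 23.1 CPM in fed, 12.5, 11.2, 11.7 and 23.4 CPM in fasted and 11.4, 12.2, 14.1 and 23.6 CPM in leptin libraries of AgRP neurons, the last value of each group being replicate 4. The Slc1a2-rich libraries held 23.1 to 23.6 CPM against 11.2 to 16.2 CPM in the others, with no overlap. In POMC libraries the corresponding ranges were 23.7 to 27.3 and 10.9 to 13.1 CPM, again with no overlap. Slc1a2 itself made up most of the astrocyte marker sum of these AgRP libraries (21079 to 26841 CPM against 2877 to 4564 CPM). Mbp, a myelin gene, was measured at 227 to 238 against 155 to 209 CPM and separated the same libraries. Cx3cr1, a microglia gene, did so too, at 24.4 to 26.3 against 7.69 to 17.8 CPM. The other microglia genes compared (Aif1, C1qa, Csf1r, P2ry12 and Tmem119) overlapped. The summed microglia markers overlapped as well, at 64.7 to 76.1 against 31.9 to 73.2 CPM. The part of any of these genes in the Irf2 level was not tested. Fasted minus fed was -0.23 (FDR = 0.798) with all libraries and -0.33 (FDR = 0.164) without replicate 4, and leptin minus fasted was 0.06 (95% interval -0.64 to 0.75, FDR = 1.00) and 0.09 (FDR = 0.864). The ranges of Irf3, Irf7 and Irf9 overlapped, although the Slc1a2-rich library held the lowest Irf3 level within each of the 6 groups of AgRP and POMC libraries. Irf3 was measured at 2.81 to 4.12 CPM in the Slc1a2-rich AgRP libraries and 3.78 to 6.12 CPM in the others, Irf7 at 1.17 to 1.53 against 1.11 to 2.37 CPM, and Irf9 at 14.2 to 24.1 against 12.6 to 36.4 CPM.

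Irf4, Irf5 and Irf8, the lymphoid and myeloid members, were near the limit of the assay in ribosome-bound RNA of both neuron types. A library held 2 to 20 counts of Irf4, 6 to 42 of Irf5 and 7 to 45 of Irf8. In AgRP libraries this was 0.0492 to 0.520 CPM of Irf4, 0.208 to 0.994 CPM of Irf5 and 0.285 to 1.08 CPM of Irf8. With no filter on low counts, fasted minus fed was 1.54 for Irf4 (FDR = 0.374), -0.12 for Irf5 and 0.05 for Irf8 on the log2 scale, none of which passed. The Irf4 libraries did not overlap, at 0.0492 to 0.107 CPM in fed and 0.121 to 0.520 CPM in fasted. These values rest on 2 to 4 counts in fed and 4 to 15 in fasted libraries. All 15 markers of a microglia list that the table holds were detected. Their summed level in AgRP neurons was 43.2 to 76.1 CPM in fed, 31.9 to 71.4 CPM in fasted and 33.1 to 64.7 CPM in leptin libraries. Single microglia genes differed widely in level. Aif1 reached at most 0.237 CPM, Csf1r at most 12.0 CPM and Cx3cr1 at most 26.3 CPM. Of the 9 microglia markers tested, 0 were called in the fast, with a median log2 fold change of -0.59, and 4 were called lower when replicate number was a block. This moves in the same direction as Irf9 in the fast, and its part in that fall was not tested. In the fast, 1 of 9 oligodendrocyte, 1 of 8 astrocyte and 4 of 8 endothelial markers were higher (medians -0.42, -0.18 and -0.06). Tanycyte and AgRP neuron markers were higher in 4 of 5 and 7 of 7 (0.19 and 0.66). For leptin against fasted, the median of the microglia list was -0.01. Oligodendrocyte, astrocyte and endothelial markers were then higher in 8 of 9, 8 of 8 and 7 of 8 (0.12, 0.10 and 0.07). Tanycyte and AgRP neuron markers were then higher in 2 of 5 and 1 of 7 (-0.14 and -0.19). The part of these lists in the Irf9 changes was not tested.

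In POMC neurons 0 of the 5 tested members were called in either comparison, as were 0 of 13412 genes (0%), with 2 libraries per state. At an unadjusted p under 0.05 edgeR gave 282 genes for fasting and 151 for leptin, and DESeq2 called 3 and 10. Irf9 was measured at 16.8 and 12.5 CPM in fed, 12.4 and 10.3 CPM in fasted and 23.9 and 15.1 CPM in leptin libraries. Fasted minus fed was -0.37 (95% interval -1.07 to 0.34, FDR = 1.00) and leptin minus fasted was 0.77 (95% interval 0.06 to 1.48, FDR = 1.00). The lower leptin library lay above both fasted libraries. Irf3 was measured at 5.96 and 4.84 CPM in fed and 3.41 and 3.26 CPM in fasted POMC libraries, which did not overlap, and at 3.89 and 3.47 CPM after leptin. Its fasted minus fed difference was -0.69 (SE 0.199, 95% interval -1.19 to -0.19, FDR = 1.00), which did not pass. Irf1 was measured at 6.39 and 5.78, 7.23 and 4.28, and 8.68 and 7.28 CPM in the fed, fasted and leptin POMC libraries, and Irf7 at 1.69 and 1.71, 1.50 and 1.52, and 1.86 and 1.08 CPM.

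Whether the effects differed between the neuron types was tested as an interaction. Among the 5 members 0 were called for fasting and 0 for leptin, against 0.164% (22 genes) and 0.0819% (11 genes) of the 13435 genes tested. The fasting effect on Irf9 in AgRP minus POMC neurons was -0.32 (95% interval -0.94 to 0.30, FDR = 0.896) and the leptin effect 0.35 (95% interval -0.25 to 0.96, FDR = 1.00). For Irf3 the fasting difference was 0.53 (95% interval -0.15 to 1.22, FDR = 0.719). The design therefore did not separate the AgRP and POMC responses of these genes, and the intervals include differences as large as the AgRP effect of the fast itself.

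Across all states, Irf9 was higher in AgRP than in POMC neurons, at 22.5 ± 8.19 CPM (SD, n = 11) against 15.2 ± 4.86 CPM (n = 6). The log2 difference in a fit that held state constant was 0.53 (SE 0.119, 95% interval 0.28 to 0.79, FDR = 0.00377), a 1.45-fold difference with overlapping libraries. Irf9 was the 1 member called, against 13.0% of the 13435 genes. The call was lost in the fed libraries alone (0.63, FDR = 0.151), and the difference fell under the fold required without POMC replicate 2 of fed (0.47), fasted (0.48) or leptin (0.43) and without all Slc1a2-rich libraries (0.36, FDR = 0.0212). Irf1 differed by 0.38 (FDR = 0.0252), below the fold required, and was called without POMC fasted replicate 1 (0.52, FDR = 0.00401). Irf2, Irf3 and Irf7 gave -0.24 (FDR = 0.486), 0.17 (FDR = 0.318) and 0.22 (FDR = 0.348), and Irf2 turned to 0.12 (FDR = 0.357) without the Slc1a2-rich libraries.

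The genes around the family were examined as lists by their role. The list medians and counts describe these genes and are not a test of the lists. Among the 11 tested interferon receptors, JAK kinases and STATs, 0 were called in the fast and 2 rose from fasted to leptin in AgRP neurons. Stat2, the obligate partner of IRF9, rose from 6.70 ± 0.590 to 14.8 ± 3.02 CPM (n = 4 and 4, log2 1.14, SE 0.142, FDR = 0.00158). Jak2, the kinase bound to the leptin receptor, rose from 37.7 to 54.3 CPM (0.52, SE 0.0940, FDR = 0.0136). Stat2 in the fast was -0.42 (FDR = 0.149), and Stat3 gave 0.00 in the fast and 0.42 (FDR = 0.267) with leptin. Against fed, Stat2 was the 1 gene of the list called with leptin (9.06 to 14.8 CPM, 0.72, FDR = 0.0177). The median of the list was -0.01 in the fast and 0.25 with leptin, against 0.02 and -0.01 over all genes tested.

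**Figure D3:**
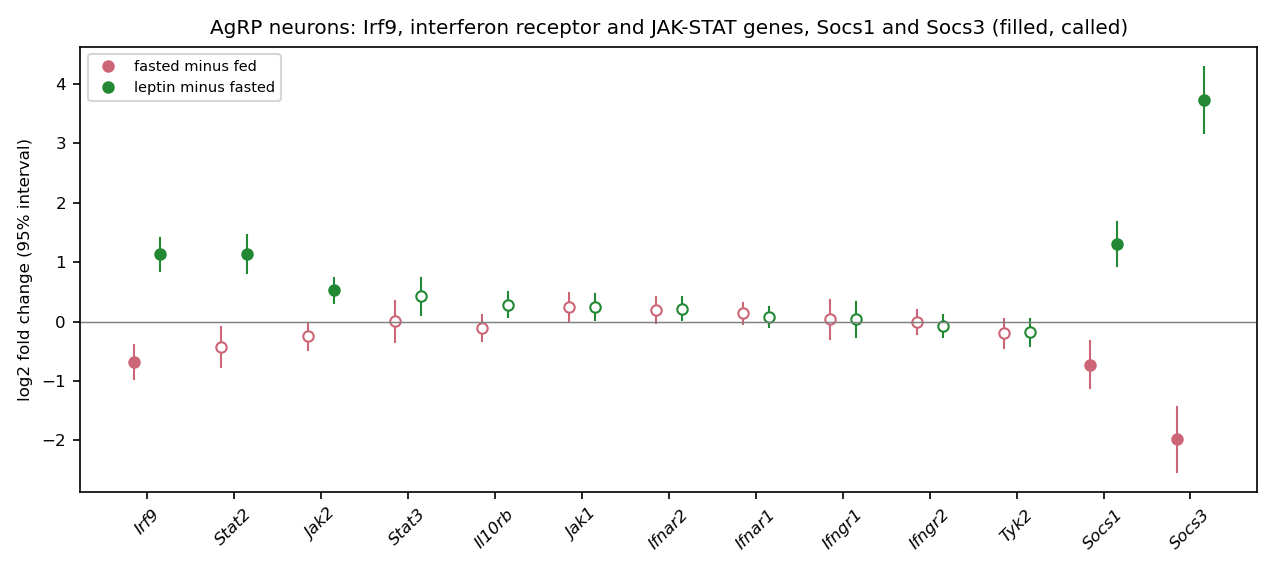
Log2 fold change with 95% interval of Irf9 and 12 genes of interferon and JAK-STAT signalling in AgRP neurons, for fasted minus fed and leptin minus fasted. Leptin values of Irf9 (1.13), Stat2 (1.14), Socs1 (1.31) and Socs3 (3.73) lie above those of the other genes shown; filled circles passed the call.

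Among 13 tested partners and inhibitors, the feedback inhibitors Socs3 and Socs1 moved in both comparisons. Socs3 fell from 9.17 to 2.32 CPM in the fast (-1.98, FDR = 0.00169) and rose to 30.8 CPM with leptin (3.73, FDR = 3.62e-05), and Socs1 fell from 2.39 to 1.45 CPM (-0.72, FDR = 0.0450) and rose to 3.59 CPM (1.31, FDR = 0.00183). Socs3 was also higher with leptin than when fed (1.75, FDR = 0.00247). Of 6 tested nucleic acid sensors, 1 was called in the fast and 0 with leptin. Ddx58, which encodes the RNA sensor RIG-I, rose from 6.22 to 9.70 CPM in the fast (0.65, SE 0.127, FDR = 0.0141). Of 18 tested adaptors and kinases, 0 were called in the fast and 1 with leptin, namely Myd88, the adaptor of Toll-like receptors, at 5.16 and 8.97 CPM (0.80, FDR = 0.00700). Against fed, leptin libraries had higher Myd88 (0.72, FDR = 0.00996) and Chuk (0.60, FDR = 0.0244). Of 20 tested interferon-stimulated genes, 1 rose in the fast and 1 rose with leptin. Eif2ak2, the RNA-activated kinase PKR, rose from 13.95 to 21.9 CPM in the fast (0.66, FDR = 0.0266). Nlrc5, a transactivator of MHC class I genes, rose from 0.521 to 2.66 CPM with leptin (2.40, FDR = 0.000769). Its fed level was 0.581 CPM, so it passed the filter of 1 CPM only through the leptin libraries, where it was high. Both of its leptin calls rest on that entry. For leptin against fed, 2 of the 20 were higher, Nlrc5 (2.19, FDR = 0.00181) and Eif2ak2 (0.68, FDR = 0.0187), and 1 was lower, Rsad2, the antiviral protein viperin (2.39 to 1.32 CPM, -0.84, FDR = 0.0104). Over all genes tested, 3.89%, 1.83% and 5.48% were called in the fast, for leptin against fasted and for leptin against fed. In lists of 6 to 20 genes 1 call changes the share by much, so these counts are not read as a result about a list. The genes named here from the lists were also called without the Slc1a2-rich libraries. The medians of the interferon-stimulated genes were -0.16 in the fast, 0.07 for leptin against fasted and 0.08 for leptin against fed, beside 0.02, -0.01 and 0.01 over all genes tested. In POMC neurons 0 genes of these lists were called.

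Over the 11 AgRP libraries, the genes whose log2 level followed Irf9 most closely were Lipg, an endothelial-type lipase (r = 0.982), Socs1 (r = 0.977) and Man2a1, a Golgi mannosidase (r = 0.970). For Irf3 they were Xrcc1 (r = 0.962) and Neil1 (r = 0.936), both of DNA base repair, and Gga2 (r = 0.943), a Golgi sorting adaptor. These correlations describe libraries that share states and replicate numbers and carry no p-value. Lipg fell in the fast by 1.34 on the log2 scale (FDR = 0.0147) and rose by 2.10 with leptin (FDR = 0.00104), and Man2a1 gave -0.65 (FDR = 0.0288) and 1.26 (FDR = 0.000756).

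Chromatin accessibility at the members was first compared between AgRP-positive and AgRP-negative nuclei. Of the 42 peaks, 6 were called (14.3%, 2 higher and 4 lower in AgRP-positive nuclei), against 39.6% of the 66560 peaks tested. Scaling by library size alone called 5, of which 4 were higher and 1 lower, and moved the median of all peaks from 0.00 to 0.16. The share at the members was therefore below that of the genome under the main scaling. Both peaks called in all 10 alternatives lay in introns of Irf2 and moved in opposite directions. The peak at chr8:46780977-46781511, 41511 bases downstream of the Irf2 start, was measured at 11.3 and 10.7 CPM in AgRP-positive and 4.31 and 5.09 CPM in AgRP-negative nuclei (log2 difference 1.22, SE 0.290, FDR = 0.000161). It also held an IRF3 and a CTCF CUT&RUN peak. The peak at chr8:46769718-46770195, 30224 bases downstream, was measured at 3.64 and 4.16 CPM in AgRP-positive and 10.7 and 13.8 CPM in AgRP-negative nuclei (-1.65, SE 0.287, FDR = 1.26e-07).

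The Irf7 peak over the first exons (chr7:141265770-141266507) was the 1 start-site peak called of 6 tested. Over all start-site peaks, 2.29% were called higher in AgRP-positive nuclei and 12.1% lower. The Irf7 peak was measured at 9.06 and 11.0 CPM in AgRP-positive and 5.66 and 5.56 CPM in AgRP-negative nuclei (0.84, SE 0.284, FDR = 0.0102). Its stretch holds both ISRE matches printed above. The call was lost without AgRP-negative replicate 1 (0.84, FDR = 0.0744), AgRP-negative replicate 2 (0.82, FDR = 0.0866) or AgRP-positive replicate 2 (0.69, FDR = 0.100) and with DESeq2 (0.80, FDR = 0.0821). The other 3 calls were weak peaks lower in AgRP-positive nuclei, 32578 bases upstream of Irf1 (-1.76, FDR = 0.0319), 19877 bases upstream of Irf4 (-1.62, FDR = 0.0402) and in Kcp 28617 bases upstream of Irf5 (-0.92, FDR = 0.0244). Each was lost with DESeq2 and on leaving out single libraries, which gave an FDR of 0.102 to 0.419 for Irf1 (all but AgRP-positive replicate 2), 0.0836 and 0.103 for Irf4 (either AgRP-positive library) and 0.0969 to 0.314 for Irf5 (all but AgRP-positive replicate 1). The start-site peaks of the other members were not called. Irf1 was measured at 32.2 and 29.5 CPM in AgRP-positive against 28.9 and 23.4 CPM in AgRP-negative nuclei (0.24) and Irf3 at 16.6 and 19.4 against 17.2 and 23.9 CPM (-0.19). Over all 11331 start-site peaks the median difference was -0.20, with 77.4% lower in AgRP-positive nuclei. The Irf9 peak centred 519 bases downstream of its start lies outside the start-site window of 1000 bases before to 100 after. It overlaps a RefSeq promoter of Irf9 (chr14:55603735-55604034), which has a later start. The peak was measured at 16.3 and 20.7 against 14.6 and 17.3 CPM (0.21) and was not called.

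**Figure D4:**
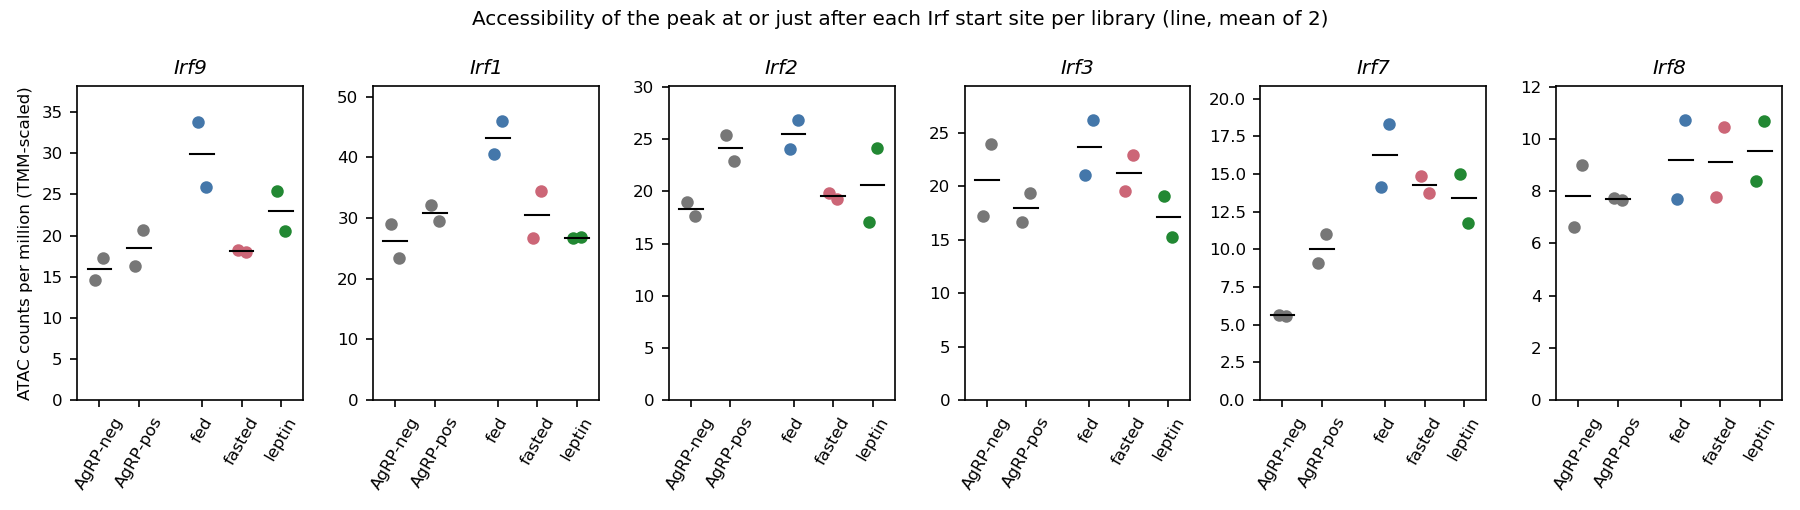
Accessibility of the start-site peaks of Irf1, Irf2, Irf3, Irf7 and Irf8, and of the Irf9 peak just downstream of its start, in ATAC CPM, with 1 circle per library, for AgRP-positive and AgRP-negative nuclei and for AgRP nuclei of fed, fasted and leptin mice. The fasted libraries of Irf9 (18.3 and 17.99 CPM) lie below the fed ones (33.8 and 26.0 CPM), and the leptin libraries (25.4 and 20.6 CPM) lie below the fed ones too.

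Between fed and fasted AgRP nuclei, 9 of the 56 member peaks tested were called (16.1%, 6 higher and 3 lower in fasted), against 27.0% of the 102237 peaks tested. The peak at the 5′ end of Irf9 (chr14:55603819-55604578) begins just downstream of the gene's annotated 5′ end and so was not counted among the start-site peaks. It does overlap a RefSeq promoter of Irf9 (chr14:55603735-55604034), which has a later start. The peak was measured at 33.8 and 26.0 CPM in fed and 18.3 and 17.99 CPM in fasted libraries, which did not overlap (-0.70, SE 0.219, FDR = 0.0224). Its call was lost without fed replicate 1 (-0.54, FDR = 0.120), fasted replicate 1 (-0.71, FDR = 0.0836) or fasted replicate 2 (-0.68, FDR = 0.105). After leptin it was measured at 25.4 and 20.6 CPM, which did not pass against fasted (0.34, FDR = 0.549) or fed (-0.36, FDR = 0.185). The Irf9 mRNA thus rose with leptin while the rise at this peak did not pass. The Irf1 start-site peak (chr11:53769486-53770812) was measured at 40.6 and 45.9 CPM in fed, 26.6 and 34.4 CPM in fasted and 26.7 and 26.8 CPM in leptin libraries. It was lower in fasted (-0.51, FDR = 0.0466) and in leptin nuclei (-0.70, FDR = 0.00640) than in fed. The fasted call was lost without fed replicate 2 (-0.42, FDR = 0.183) or any 1 of the fasted or leptin libraries (FDR 0.0543 to 0.338), and also with library-size scaling (FDR = 0.0790), DESeq2 (FDR = 0.0712) and no filter (FDR = 0.0606), so that it held in 4 of 12 alternatives. The leptin call was lost without leptin replicate 2 (-0.69, FDR = 0.0519). Start-site peaks as a whole moved the same way, with a median of -0.23 and 84.7% lower in fasted over 11696 peaks, and -0.28 and 86.0% for leptin against fed. Of these peaks, 3.70% were called lower and 1.47% higher in fasted, and 7.32% and 2.11% for leptin against fed. The remaining start-site peaks gave -0.39 for Irf2, -0.21 for Irf7, -0.17 for Irf3 and -0.06 for Irf8 in the fast and were not called.

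Distal peaks gave the larger changes, and 3 of them were called under each of the 12 alternatives for fasted minus fed. A peak 37356 bases downstream of the Irf4 start (chr13:30786222-30786944, intergenic) was measured at 11.5 and 9.88 CPM in fed, 31.3 and 27.3 CPM in fasted and 31.2 and 29.4 CPM in leptin libraries (1.47, SE 0.231, FDR = 0.000170). It had opened in the fast and stayed at that level with leptin (leptin minus fed 1.52, FDR = 6.67e-05), while Irf4 mRNA was at the limit of detection. A peak in an intron of Phrf1, 25477 bases downstream of the Irf7 start (chr7:141240756-141241254), was measured at 1.37 and 1.08 CPM in fed, 7.14 and 7.59 CPM in fasted and 12.0 and 8.76 CPM in leptin libraries (2.62, SE 0.455, FDR = 0.000368). A peak at the 3′ end of Irf3, nearest to the start of Bcl2l12 (chr7:45002447-45002888), was measured at 2.36 and 3.53 CPM in fed, 9.11 and 9.65 CPM in fasted and 11.1 and 6.97 CPM in leptin libraries (1.60, FDR = 0.00354). These peaks lie nearer to other genes in 2 of 3 cases, and no link between a distal peak and a member was measured.

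The other 4 distal fasting calls were lost on leaving out single libraries, which leaves 1 library in a group, while their differences kept their direction. They were a peak 47090 bases downstream of the Irf4 start (2.24, FDR = 0.0315), peaks 2626 (1.70, FDR = 0.0271) and 15704 bases (1.05, FDR = 0.0309) downstream of the Irf5 start and a peak in an Irf2 intron, 20032 bases downstream (-1.73, FDR = 0.0256). The Irf4 peak lost its call without fed replicate 1 (2.55, FDR = 0.0861), fed replicate 2 (1.79, FDR = 0.251) or fasted replicate 2 (1.96, FDR = 0.137). The nearer Irf5 peak lost it without the same libraries (1.94, 1.34 and 1.15, with FDR = 0.0640, 0.229 and 0.235). The farther Irf5 peak lost it without any 1 of the fed or fasted libraries (FDR 0.0721 to 0.106), with differences of 0.98 to 1.10. The Irf2 peak lost it without fed replicate 1 (-1.53, FDR = 0.126) or either fasted library (-1.74 and -1.70, FDR = 0.0852 and 0.0884). The farther Irf5 peak was measured at 4.34 and 4.69 CPM in fed against 9.50 and 9.34 CPM in fasted libraries.

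From fasted to leptin, 2 of 56 member peaks were called (3.57%), against 3.08% of all peaks tested. A peak 28818 bases downstream of the Irf3 start, nearest to Rras, was measured at 6.44 and 6.47 CPM in fasted and 16.5 and 10.5 CPM in leptin libraries (1.04, FDR = 0.0483). A peak 32528 bases upstream of the Irf4 start was measured at 0.382 and 0.871 CPM in fasted and 2.29 and 2.34 CPM in leptin libraries (1.87, FDR = 0.0443). Its fasted libraries lay under 1 CPM, so its entry past the filter on low counts rested on the other states. The Irf3-window peak lost its call without any 1 of the fasted or leptin libraries (FDR 0.0650 to 0.426), and the Irf4-window peak without fasted replicate 1 (FDR = 0.430), leptin replicate 1 (FDR = 0.169) or leptin replicate 2 (FDR = 0.275). DESeq2 called neither.

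For leptin against fed, 13 of 56 were called (23.2%, 7 higher and 6 lower), against 36.8% of all peaks tested. This comparison shares its fed libraries with the fasting comparison and its leptin libraries with the one above. The peaks called under each of the 12 alternatives were those 37356 (1.52) and 47090 bases (3.44, FDR = 0.000280) downstream of Irf4, the Phrf1 intron peak near Irf7 (3.10, FDR = 2.99e-05) and a peak 43419 bases downstream of Irf1, which was measured at 5.46 and 4.18 CPM in fed and 1.60 and 1.34 CPM in leptin libraries (-1.68, FDR = 0.00269). The peak 47090 bases downstream of Irf4 was measured at 0.372 and 0.216 CPM in fed and 2.98 and 3.12 CPM in leptin libraries. Its fed libraries lay under 1 CPM, so it passed the filter on low counts through the other states, where it was higher. It was also called with no filter. Near Irf9 itself, a peak in an exon of Rnf31, 7378 bases upstream, was measured at 6.95 and 7.93 CPM in fed and 2.85 and 4.30 CPM in leptin libraries (-1.05, FDR = 0.0186), and lost its call without fed replicate 2 (FDR = 0.116) or leptin replicate 1 (FDR = 0.163). The strongest of these peaks, 44533 bases downstream of Irf7 near Rassf7, held an IRF3 peak and was measured at 53.6 and 54.7 CPM in fed and 34.9 and 38.3 CPM in leptin libraries (-0.56, FDR = 0.00995), and lost its call without leptin replicate 1 (-0.48, FDR = 0.0873). The other 7, the Irf1 start-site peak and peaks 35312 bases upstream of Irf4 (1.74), 28554 bases upstream (-1.05) and 2626 bases downstream (1.47) of Irf5, 5019 (1.53) and 28818 bases (1.29) downstream of Irf3 and 39636 bases upstream of Irf8 (-1.07), each lost the call on leaving out at least 1 library. For the peaks of the Irf3 window this was leptin replicate 1 (FDR = 0.0562 and 0.0610). For Irf4 it was fed or leptin replicate 2 (FDR = 0.203 and 0.223), as it was for Irf8 (FDR = 0.260 and 0.234). The Irf5 peaks lost it without fed replicate 2 or leptin replicate 1 (FDR = 0.252 and 0.218) and without any 1 of the fed or leptin libraries (FDR 0.0856 to 0.313).

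**Figure D5:**
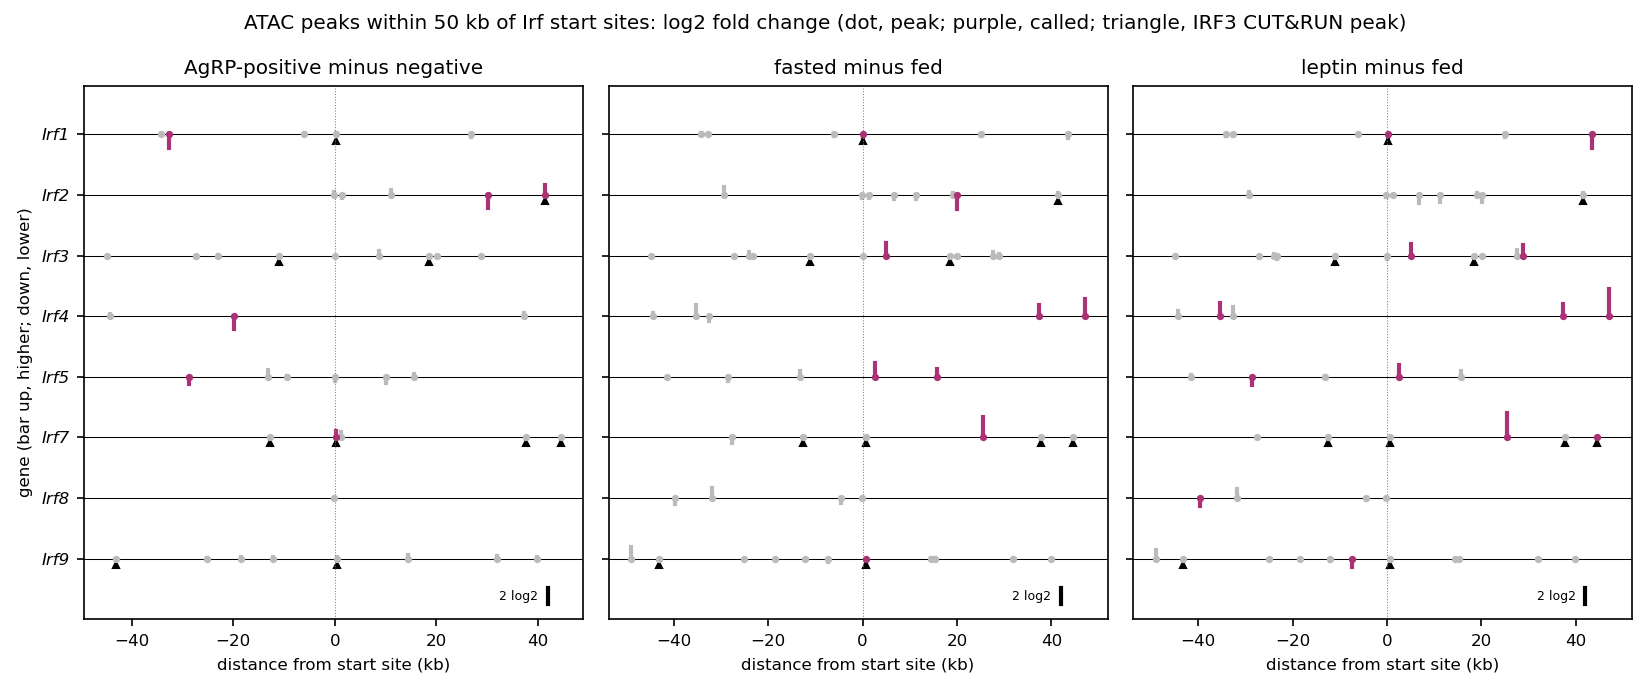
ATAC peaks within 50 kb of each member's start site, by distance in kb, for AgRP-positive minus AgRP-negative, fasted minus fed and leptin minus fed. Each dot is a peak, the bar gives its log2 difference (upward for higher, scale bar 2), purple marks called peaks and triangles mark IRF3 CUT&RUN peaks. The tallest bars are distal, near Irf4 (3.44) and Irf7 (3.10) for leptin minus fed.

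IRF3 CUT&RUN in the mutant model gave 30387 peaks, of which 18 lay within 50 kb of a member's start. The list was taken as the IRF3 list because it is the 1 list made by SEACR, the caller the study used for that sample, and its own name does not state the target. Its build is not given and was read as mm10, the 1 build named in the labels. A peak lay within 50 kb of 6 of the 8 members (Irf1, Irf2, Irf3, Irf4, Irf7 and Irf9), against 71.9% of 21951 protein-coding genes, and within 1 kb of 3 members (Irf1, Irf7 and Irf9), against 21.3% of genes. The 3 within 1 kb were at chr11:53769834-53770029 (Irf1, total signal 1181, maximum 11), chr7:141266035-141266526 (Irf7, total 1998, maximum 15) and chr14:55604071-55604158 (Irf9, total 1259, maximum 20). Over the whole list the median total signal was 1288 and the median maximum 17, so the totals of the Irf1 and Irf9 peaks lay under the median. The Irf1 interval covers the GAS match of the promoter printed above. The largest of the 18 (total 8054) lay at the start of Prmt1, 11099 bases upstream of Irf3, and no peak lay at the start of Irf3. Of the 18, 12 (66.7%) overlapped an ATAC peak of either table, against 32.2% and 36.4% of all IRF3 peaks, and 8 (44.4%) overlapped a CTCF peak, against 23.2% of all. The 18 were chosen for lying near gene starts and the whole list was not. Peaks near the starts of other genes were not compared, so these shares are not a result about the members. CTCF peaks lay within 50 kb of 7 members (87.5% of protein-coding genes) and within 1 kb of Irf7 (fold enrichment 2.43), Irf8 (2.48) and Irf9 (7.11), against 26.6% of genes and a median fold enrichment of 3.35. With 1 library each and few peaks per gene, these overlaps have no replicate check.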

How the data were processed

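RNA was measured in 17 TRAP libraries, accessibility in 10 ATAC libraries and binding in 2 CUT&RUN lists. For RNA, the deposited table held raw counts per gene, made by the authors with HISAT2 and featureCounts on mm10 with an annotation changed to reduce overlapping genes. The ATAC tables held raw counts per peak deposited by the authors, from Bowtie2 and MACS2. The IRF3 list held SEACR total and maximum signal as deposited, and the CTCF list held MACS2 fold enrichment as deposited. Versions are not given in the sources used here. The deposited log2 CPM and ATAC CPM tables, the cerebellum CTCF lists, the IgG sample and the whole arcuate RNA samples were not used here, and 1 gene of the receptor and JAK-STAT list is not reported here.

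Groups came from the sample labels. Genes or peaks with a mean over 1 CPM in a set were fitted with edgeR 4.0.16 (TMM, glmQLFit, glmQLFTest, R 4.3.3), with Benjamini-Hochberg FDR over all features. A call needed an FDR below 0.05 together with a log2 difference beyond 0.5 in either direction. Fold changes came from each set's own fit, with all states of a set sharing the spread, and the scripts were tested on simulated data. DESeq2 1.42.0, library-size and RLE scaling, no filter, the older robust quasi-likelihood fit, a replicate block and each library left out were alternatives. A start-site peak lies at most 1000 bases before or 100 after a start. The start used for peaks was the 5′ end of the annotated gene, and RefSeq promoters can use other starts. Named genes were all members, then for each list other than the markers the called genes (up to 4 by size where more). For Irf9 and Irf3, the 3 genes of highest correlation were also named. Marker lists are given mainly by counts and medians. The marker genes called for leptin against fed in AgRP neurons were Agrp (1.69), Lepr (1.21) and Vim (0.66). The lists were nucleic acid sensors, adaptors and kinases, receptors and JAK-STAT, interferon-stimulated genes, and partners and inhibitors. Marker lists covered AgRP neurons, POMC neurons, astrocytes, oligodendrocytes, endothelium, tanycytes with ependyma, and microglia. Members and lists were chosen with earlier results of these data known.

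Same-numbered AgRP libraries deviated together (r = 0.536 to 0.814 over 10 pairs, against -0.642 to 0.642 for other pairs), which was read as pairing, although the labels do not state a shared day or litter. Fed replicate 2 of the AgRP set is not analysed here.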

Additional observations from a re-analysis of the deposited data

Results flagged for a closer look

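Irf2 in AgRP fasted replicate 4 stood far from the other 3 fasted libraries, at 23.4 CPM against 11.2 to 12.5 CPM, with a gap to the nearest of them that took 0.889 of the group's range, above Dixon's critical value for 4 samples. It was the 1 such value among 16 groups of 4 examined, and chance flags about 1 in 20 groups. The same library held high Slc1a2, as did replicate 4 of the other states, whose Irf2 level was 23.1 to 23.6 CPM. The part of this in the Irf2 level was not tested.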

How the results depend on the processing

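Results for single genes and peaks kept their direction and side of the threshold in 1494 cases, with 85 weaker, 7 stronger and 56 reversed. Irf9 from fasted to leptin was called in every alternative. With replicate number as a block, members called in RNA did not change, and 6, 10, 3 and 15 peaks were called in sorted nuclei, fasted minus fed, leptin minus fasted and leptin minus fed. For all genes the block gave 930, 390 and 1148 calls in AgRP fasted minus fed, leptin minus fasted and leptin minus fed, 836 and 102 for the interactions and 3 and 8 in POMC neurons, and for all peaks 5875 from fasted to leptin. Library-size scaling gave 238, 146 and 329 calls in the AgRP comparisons, and DESeq2 gave 165 and 39 for the interactions and 1779 peaks from fasted to leptin. AgRP-positive and AgRP-negative nuclei came from the same pooled samples, and their same-numbered libraries correlated at 0.0988. With the block the same 6 peaks were called. The ATAC states (-0.00228 to 0.165) and POMC libraries (0.733 to 0.770, with 2 libraries per state) share a number that the labels do not explain. The alternative without the Slc1a2-rich libraries was chosen after the data were seen.

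Members called fell from 1 to 0 for AgRP fasted minus fed under library-size scaling and for AgRP minus POMC in the fed libraries alone and without the Slc1a2-rich libraries, and rose to 2 for AgRP minus POMC with no filter, which added Irf4 (-1.30, FDR = 0.0252). Peaks called fell from 6 to 2 in sorted nuclei with DESeq2, and from 2 to 0 from fasted to leptin with DESeq2 and with the older quasi-likelihood fit. On leaving out 1 library, members called ranged from 0 to 1 for AgRP fasted minus fed and leptin minus fed and from 0 to 2 for AgRP minus POMC. Peaks called ranged from 2 to 4 in sorted nuclei, 4 to 9 for fasted minus fed, 0 to 2 for leptin minus fasted and 7 to 15 for leptin minus fed. The causes were not tested.

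Reversed values of single genes and peaks follow, none of them called. Irf3 in AgRP minus POMC was -0.038 in fed libraries, and Irf2 was 0.12 without the Slc1a2-rich libraries. Under library-size scaling, sorted-nuclei peaks 43095 bases upstream of Irf9, 11046 upstream of Irf3 and 187 upstream of Irf8 gave 0.034, 0.00168 and 0.14. The peak 11091 bases upstream of Irf3 gave -0.00633 from fasted to leptin with no filter, and that 161 bases upstream of Irf8 gave -0.000911 for leptin minus fed with RLE factors. Leaving out 1 library gave Irf2 ranges of -0.57 to 0.00230, -0.24 to 0.40 and -0.48 to 0.073 in AgRP fasted minus fed, leptin minus fasted and leptin minus fed, -0.41 to 0.030 in AgRP minus POMC, -0.74 to 0.68 and -0.42 to 0.75 in POMC fasting and leptin, and -0.94 to 0.48 and -0.68 to 0.47 in the interactions. Irf1 ranged from -0.52 to 0.26 in POMC fasting and -0.65 to 0.13 and -0.72 to 0.059 in the interactions. Irf7 ranged from -0.079 to 0.22 in AgRP fasting, -0.50 to 0.30 in POMC leptin and -0.71 to 0.10 in the leptin interaction. Peak ranges were, in sorted nuclei, -0.41 to 0.060 (Irf3 start), -0.33 to 0.00172 (Irf7, 44496 bases) and -0.23 to 0.20 (Irf8 start). In fasted minus fed they were -0.51 to 0.00281 and -0.40 to 0.055 (Irf3, -11091 and 18513 bases), -0.38 to 0.00298 (Irf7 start) and -0.27 to 0.23 (Irf8 start). In leptin minus fasted they were -0.36 to 0.00586 (Irf1 start), -0.19 to 0.31 and -0.15 to 0.068 (Irf2 start and 41469 bases), -0.053 to 0.065 (Irf3, -11091), -0.26 to 0.15 and -0.28 to 0.073 (Irf7, -12582 and start) and -0.11 to 0.31 (Irf8 start). In leptin minus fed they were -0.51 to 0.00198 (Irf3, -11091) and -0.18 to 0.31 (Irf8 start). Irf4, Irf5 and Irf8 mRNA, at 2 to 45 counts, gave too little to compare firmly at this depth. The call of Irf4 between neuron types with no filter rests on such counts.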

Other observations

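Between neuron types, 13.0% of the 13435 genes tested were called over all states, and the counts below stand beside that share. Stat3, the leptin-activated STAT, was higher in AgRP than in POMC neurons (274 against 145 CPM, log2 0.91, FDR = 4.93e-05), and was the 1 of 11 tested receptor and JAK-STAT genes called. Tlr4, the receptor for bacterial lipopolysaccharide, and Ifih1, an RNA sensor, were lower in AgRP neurons (-1.02, FDR = 0.00226, and -0.53, FDR = 0.000793), the 2 called of 6 sensors tested. Of the adaptors and kinases 1 of 18 was called, Traf3 (-0.66). Of 19 tested interferon-stimulated genes 5 were higher and 1 was lower, led by Psmb8, an immunoproteasome subunit (1.60), Ifi27 (-1.33), B2m, the light chain of MHC class I (0.91), and Eif2ak2 (0.82). Of the partners and inhibitors, Socs3 (1.04), Socs1 (0.78), Trim21 (0.77) and Ptpn2 (0.61) were higher in AgRP neurons. The median difference was 0.17 for the interferon-stimulated genes and -0.02 over all genes. Without the Slc1a2-rich libraries, which are 3 of 6 POMC and 3 of 11 AgRP libraries, the genes named here were called in the same direction, with Tlr4 at -0.79 (FDR = 0.00410) and Ifih1 at -0.52 (FDR = 0.00452). Of the markers of other cell types, 1 of 8 endothelial genes was called (Kdr, -1.01, FDR = 0.00127). Of the astrocyte genes 1 of 8 was called (Slc1a3, -0.65, FDR = 0.0411). Both were lower in AgRP libraries. Of the 10 microglia, 9 oligodendrocyte and 5 tanycyte genes tested, 0 were called. The list medians were -0.15, -0.33, -0.32, -0.20 and -0.40 in this order. The part of these markers in the differences between neuron types was not tested. The AgRP marker list was higher in AgRP libraries in 7 of 7 genes and the POMC marker list lower in 6 of 6.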
